A study of Mus musculus with 12 samples.

Results

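The 10 genes Nrn1, Kap, Amtn, Tnfrsf19, Tlnrd1, Tafa5, Fam110c, Pcp4l1, Mtss1 and Tnfaip8l3 were examined in uterine cells given estradiol (E2). They were 10 of 19938 genes with a probe set of a single gene symbol, and each had 1 such probe set. They were chosen by their log2 values in these data, which rose with E2 in the epithelial arrays and ended above those of the stromal E2 arrays. Their epithelial rise and their lead over stroma under E2 are therefore given below as descriptions, without a test. By a coded version of the criteria (an adjusted p under 0.05 in epithelium and every epithelial E2 array above every stromal E2 array) 162 of 23410 probe sets qualified (0.692%), these 10 among them. Ordered by their epithelial difference, the 10 stood between rank 6 (Nrn1) and rank 85 (Tnfrsf19) of the 162. These are ranks among probe sets and not genes, since some other genes, such as Trdn, held several of the places.

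The cells came from uteri of CD-1 mice on day 4 of pseudopregnancy. Sheets of epithelium grew on inserts coated with matrigel, a basement membrane gel, and stromal cells grew on cover slips in the same wells. After a night in medium with charcoal-stripped serum, the wells received E2 at 10 nM or ethanol alone at 0.01% (vehicle) for 2 days, and RNA was taken from each layer separately. Each layer was measured on 3 Affymetrix Mouse Gene 1.0 ST arrays with vehicle and 3 with E2, which made 4 groups and 12 arrays. All groups had been co-cultured, so no layer was measured without the other. Nothing in the labels tells if replicate arrays stand for separate animals or wells, so that the p-values speak to the spread among these samples alone, which may be technical. Values are log2 signals on the scale of RMA, a method that sums the probes of a gene after normalizing arrays to each other. A value after ± is a standard error from the limma fit unless SD is written, and n is 3 arrays per group throughout.

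Estradiol enters cells and binds the estrogen receptors, which act as transcription factors on target genes. In the uterus both epithelium and stroma carry the receptor, and some epithelial responses depend on factors that stromal cells release. The 10 genes belong to no single pathway. Nrn1, Kap, Amtn and Tafa5 encode proteins that are secreted or tethered to the cell surface, Tnfrsf19 encodes a membrane receptor, and Tlnrd1, Mtss1, Fam110c, Pcp4l1 and Tnfaip8l3 encode proteins of the cytoskeleton or of intracellular signalling.

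Before the genes themselves, the make-up of the layers was checked with marker lists. The mean of 17 epithelial markers was 9.52 to 11.17 on the epithelial arrays and 6.74 to 7.15 on the stromal arrays. Stromal markers did not separate the layers as clearly, with a mean of 15 genes of 9.95 to 10.74 on the epithelial and 10.83 to 11.13 on the stromal arrays. Pdgfra, a receptor typical of mesenchymal cells, measured 9.82 to 11.94 on the epithelial arrays and 11.62 to 12.27 on the stromal arrays. In such bulk samples, fewer cells of a type and less RNA per cell cannot be told apart. E2 replicates 1 and 2 were the closest pair of arrays in each layer. Their median absolute difference over all tested probe sets was 0.0831 in epithelium and 0.0642 in stroma, against 0.0913 to 0.27 for every other pair of a group. Values with this pair averaged are given below where they differ in a call or a count.

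The secreted and surface proteins came first. Nrn1, which encodes neuritin, a small protein tethered to the cell surface and known from neurite outgrowth, measured 7.47, 8.04 and 8.25 on the epithelial vehicle arrays. With E2 it measured 11.04, 11.02 and 10.70. The 3 E2 arrays lay far above the 3 vehicle arrays, with a log2 difference of 3.00 ± 0.21 (8.0-fold). In stroma Nrn1 measured 8.15, 8.80 and 8.62 under vehicle and 8.48, 8.41 and 8.74 under E2, and these groups overlapped. Under vehicle the order of the layers was the other way round for this gene, the stromal mean of 8.52 lying above the epithelial mean of 7.92.

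Kap encodes the kidney androgen-regulated protein, a secreted product first known from the proximal tubule. It measured 5.90, 5.61 and 5.83 on the epithelial vehicle arrays and 7.27, 7.76 and 7.58 with E2, 1.75 ± 0.14 higher (3.37-fold). On the 6 stromal arrays it stayed between 5.25 and 5.66. Amtn, the gene of amelotin, a secreted protein of enamel-forming and gum epithelium, had a like profile. It measured 5.80, 5.58 and 5.84 under vehicle and 7.30, 7.63 and 7.35 with E2 in epithelium, 1.69 ± 0.13 higher (3.22-fold). The stromal arrays lay between 5.32 and 5.75. For both genes, as for Tnfrsf19 and Pcp4l1 below, the 9 arrays outside the epithelial E2 group lay below the array medians, which were 7.38 to 7.43 over the tested probe sets. Whether those low values stood above background was not tested, so the folds of these 4 genes are those of the array signal.

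Tafa5 encodes a secreted chemokine-like protein found mainly in nervous tissue. It measured 7.82, 7.47 and 7.89 under vehicle and 9.20, 8.99 and 9.31 under E2 in epithelium, 1.44 ± 0.13 higher (2.71-fold). In stroma it measured 7.70, 7.51 and 7.57 under vehicle and 7.73, 7.52 and 7.48 under E2. The epithelial vehicle arrays and all stromal arrays of Tafa5 thus overlapped, and only the epithelial E2 arrays stood apart.

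Tnfrsf19, also called TROY, encodes a receptor of the tumor necrosis factor receptor family that is expressed in developing epithelia and the nervous system. Its difference was the smallest of the 10 genes and its arrays the most tightly grouped. It gave 6.83, 6.90 and 6.95 under vehicle and 7.83, 7.92 and 7.91 under E2 in epithelium, 0.99 ± 0.08 higher (1.99-fold). Its stromal values were 6.70, 6.59 and 6.69 with vehicle and 7.08, 6.88 and 6.99 under E2. The stromal groups did not overlap either, all 3 stromal E2 arrays lying above all 3 vehicle arrays.

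Of the cytoskeletal proteins, Tlnrd1 encodes a protein with a talin-like rod domain that binds actin. It measured 7.32, 7.64 and 7.97 under vehicle and 9.24, 9.36 and 9.11 under E2 in epithelium, 1.59 ± 0.14 higher (3.01-fold). In stroma it measured 8.03, 8.01 and 7.88 under vehicle and 7.53, 7.66 and 7.57 under E2. Tlnrd1 was the only one of the 10 whose stromal E2 arrays all lay below the stromal vehicle arrays.

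Mtss1 encodes a membrane-bending scaffold that links phosphoinositides to actin. It measured 8.35, 8.87 and 8.61 under vehicle and 10.24, 10.15 and 9.96 under E2 in epithelium, 1.51 ± 0.15 higher (2.84-fold). Stromal arrays gave 8.39, 8.57 and 8.47 under vehicle and 8.84, 8.75 and 9.17 under E2. All stromal E2 arrays of Mtss1 lay above the stromal vehicle arrays, at a lower level than in epithelium.

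Fam110c encodes a protein associated with microtubules. It measured 8.98, 9.51 and 9.52 under vehicle and 11.35, 11.34 and 11.09 under E2 in epithelium, 1.92 ± 0.18 higher (3.80-fold). Its stromal values were 8.32, 8.43 and 8.21 with vehicle and 8.86, 8.85 and 8.29 under E2. Stromal E2 replicate 3 lay within the stromal vehicle range, and the other 2 E2 arrays above it.

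Pcp4l1 encodes a small relative of the calmodulin-binding protein Pcp4. It measured 6.86, 6.69 and 6.70 under vehicle and 9.08, 9.03 and 8.17 under E2 in epithelium, 2.01 ± 0.19 higher (4.03-fold). Stromal arrays gave 6.44, 6.42 and 6.61 under vehicle and 6.97, 6.995 and 6.89 under E2. Its epithelial E2 arrays spread the most of the 10 genes (SD 0.51), because replicate 3 was lower than the other 2.

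Tnfaip8l3 encodes a protein that carries phosphoinositide lipids between membranes. It measured 7.73, 7.79 and 7.67 under vehicle and 9.95, 9.96 and 9.40 under E2 in epithelium, 2.04 ± 0.17 higher (4.12-fold). In stroma it measured 7.53, 8.11 and 7.60 under vehicle and 8.73, 8.68 and 8.87 under E2. All 3 E2 arrays lay above the vehicle arrays in both layers, and the vehicle means of the layers were 7.73 and 7.75.

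**Figure D1:**
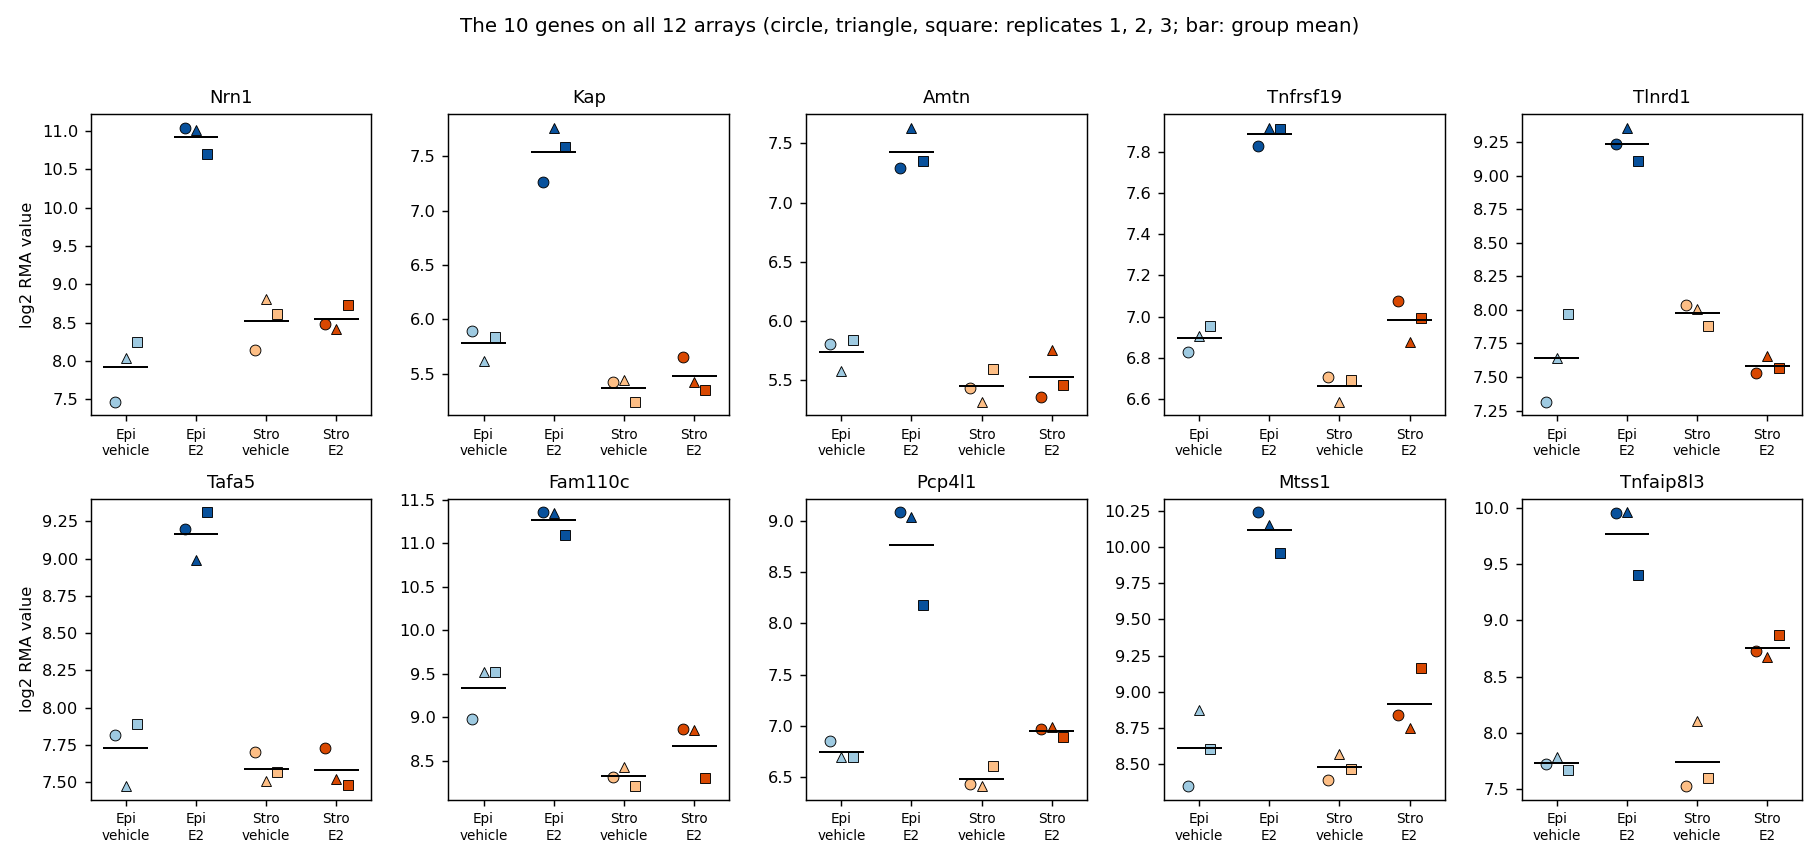
Log2 RMA values (vertical axis, a separate scale in each panel) of the 10 genes on the 12 arrays, grouped along the horizontal axis by layer and treatment, with a bar at each group mean of 3 arrays. In every panel the 3 epithelial E2 points lie above the other 9, and for Tnfaip8l3 the stromal E2 points also stand above both vehicle groups.

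All 3 epithelial E2 arrays lay above the other 9 arrays for 10 of the 10 genes, as for 342 of 23410 probe sets (1.46%), and the way the genes were picked favours this. The gap between the lowest epithelial E2 array and the highest of the other 9 ran from 0.53 for Tnfaip8l3 to 1.90 for Nrn1. That all 10 were past the threshold in the epithelial contrast follows from how they were picked and tests nothing. Of all probe sets 2.9% were called there and 1.77% were higher. Over the 10 genes the epithelial difference had a median of 1.72 (0.99 to 3.00), and 0.03 over all probe sets tested. Under E2 the epithelial mean exceeded the stromal mean by 0.90 (Tnfrsf19) to 2.59 (Fam110c), with a median of 1.73. Leaving out any 1 epithelial array moved the median epithelial difference no further than 1.61 to 1.80. With E2 replicates 1 and 2 averaged it was 1.72.

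Cell type markers moved in the same epithelial arrays. The epithelial marker mean was 10.64, 11.17 and 9.60 without E2 and 9.52, 9.70 and 9.75 under E2, and 2 of 17 markers, Cldn4 and Wfdc2, fell in the limma fit. The mean of the 10 genes went the other way, from 7.31, 7.41 and 7.52 under vehicle to 9.25, 9.32 and 9.06 under E2. Vehicle replicate 3 had an epithelial marker mean within the range of the E2 arrays. The part of cell make-up in the epithelial differences of the 10 genes was not tested. The stromal marker mean was 10.14, 9.95 and 10.74 without E2 and 10.60, 10.55 and 10.52 with it, with 0 of 15 markers passing in limma (3 at an unadjusted p under 0.05, all higher). On the stromal arrays themselves the mean of the 10 genes was 7.21 to 7.52.

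The mean of 12 leukocyte markers was 8.56, 8.38 and 8.62 on the epithelial vehicle arrays and 9.09, 9.20 and 8.48 with E2, and Csf1r, the receptor of a macrophage growth factor, rose. On the stromal arrays that mean was 8.95 to 9.54. E2 replicate 3, low in leukocyte markers, was the lowest epithelial E2 array for 6 of the 10 genes, with the widest gap for Pcp4l1. The part of leukocyte RNA in the level of Pcp4l1 was not tested. Without E2 replicate 3 the epithelial difference of Pcp4l1 was 2.30, and 2.01 with it. Smooth muscle markers had a mean of 10.48 to 10.69 under vehicle and 10.22 to 10.55 under E2 in epithelium, with Actg2 falling among 8. Mesothelial markers had a mean of 9.09 to 9.85 and 8.90 to 9.46, with Msln falling among 6, and 6.89 to 7.06 on the stromal arrays. Under vehicle 4 of these 6 markers were higher in epithelium than in stroma. Endothelial markers had a mean of 7.89 to 7.92 under vehicle and 7.75 to 7.96 under E2 in epithelium, with Kdr rising among 9. Nerve and Schwann cell markers, listed because Nrn1, Tafa5 and Pcp4l1 are known from nervous tissue, measured 6.40 to 6.58 under vehicle and 6.51 to 6.69 under E2, with 0 of 6 passing in limma (1 at an unadjusted p under 0.05, Mbp).

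**Figure D2:**
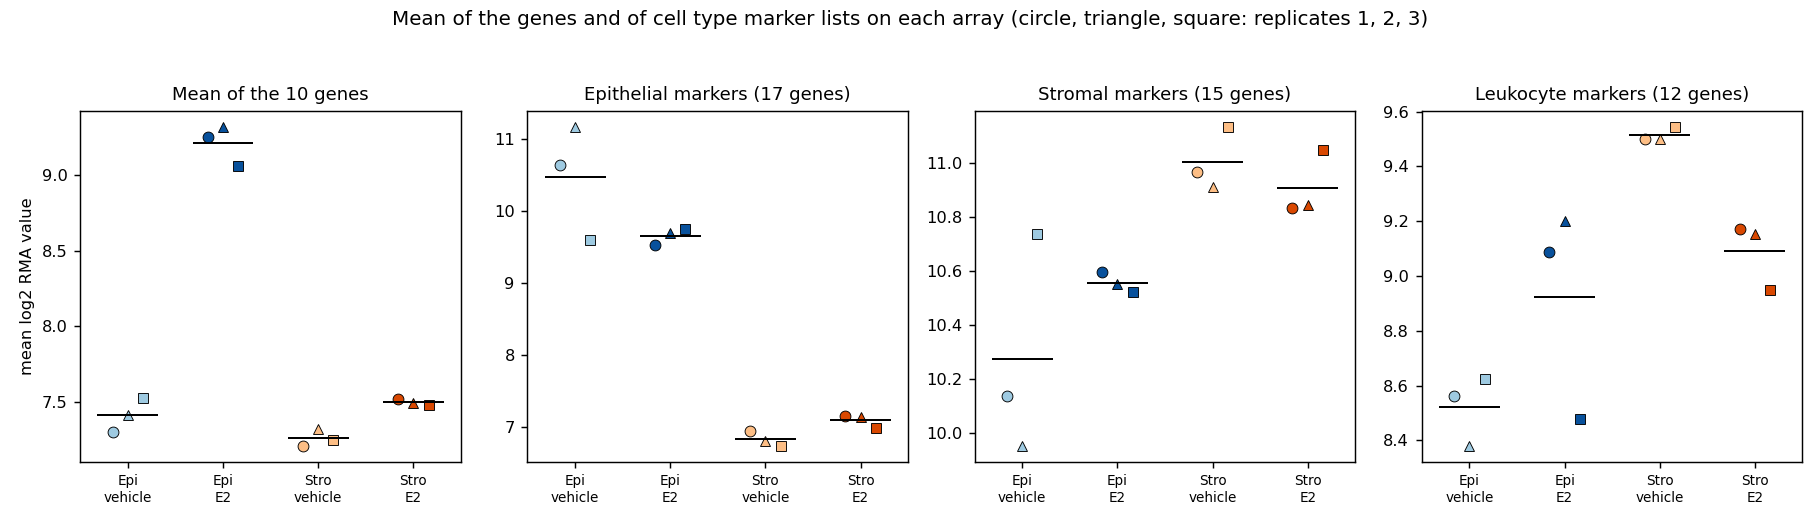
Mean log2 RMA value (vertical axis, a separate scale in each panel) of the 10 genes and of 3 marker lists on each array, by layer and treatment, with a bar at each group mean of 3 arrays. The mean of the 10 genes lies between 9.06 and 9.32 on the epithelial E2 arrays and between 7.21 and 7.52 on the other 9, while epithelial vehicle replicate 3 (square) has an epithelial marker mean like that of the E2 arrays.

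The word "only" does not hold for all 10 genes, since Tnfaip8l3 rose in stroma too. Its stromal difference was 1.01 ± 0.17 (2.02-fold, adjusted p = 0.00739 by limma), close to 50% of its epithelial difference on the log2 scale (49.6%). This call held in all 21 other settings tried, with differences of 0.90 to 1.20 and adjusted p from 8.44e-06 to 0.0464. It was 1 of 10 genes called in stroma, where 3.5% of all probe sets were called, 1.52% higher and 1.98% lower. The stromal E2 arrays had served in picking the genes, so these stromal values check the name and are no independent evidence.

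The other 9 genes did not pass in stroma (limma, adjusted p from 0.0569 to 0.994), which does not show that they were unaffected there. Tnfrsf19 was nearest, 0.32 ± 0.08 higher with a 95% interval of 0.14 to 0.50 (adjusted p = 0.0569). It passed without epithelial vehicle replicate 2 (adjusted p = 0.04) and without epithelial E2 replicate 3 (0.0447). Pcp4l1 measured 0.46 ± 0.19 higher (0.04 to 0.89) and also passed without epithelial E2 replicate 3 (adjusted p = 0.00936), an array that enters here only through the shared spread. Mtss1 measured 0.44 ± 0.15 higher (0.12 to 0.76), Fam110c 0.35 ± 0.18 higher (-0.04 to 0.74) and Tlnrd1 -0.39 ± 0.14 (-0.70 to -0.08). Fitted on the 6 stromal arrays alone, whose spread was smaller, 3 of the 10 genes were higher (Tnfaip8l3, Tnfrsf19 and Pcp4l1) and 1 was lower (Tlnrd1). In that fit 2142 of the 23410 probe sets were called, 895 higher and 1247 lower.

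For the remaining 4 genes the stromal difference lay close to 0. It was 0.02 ± 0.21 for Nrn1 (95% interval -0.44 to 0.48), 0.11 ± 0.14 for Kap (-0.19 to 0.41), 0.08 ± 0.13 for Amtn (-0.21 to 0.37) and -0.01 ± 0.13 for Tafa5 (-0.29 to 0.27). In all, 8 of the 10 measured higher and 2 lower with E2 in stroma, with a median of 0.21, against 0.03 over all probe sets. The stromal E2 arrays lay entirely above the stromal vehicle arrays for 4 genes (Tnfrsf19, Pcp4l1, Mtss1 and Tnfaip8l3) and entirely below for Tlnrd1, while 15.9% and 14.6% of all probe sets did so.

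The epithelial minus the stromal difference is given without a test, because the epithelial contrast chose the genes. It was positive for 10 of 10, from 0.67 ± 0.11 for Tnfrsf19 and 1.03 ± 0.24 for Tnfaip8l3 to 1.98 ± 0.20 for Tlnrd1 and 2.98 ± 0.30 for Nrn1. Tlnrd1 ranked second because its differences ran in opposite directions.

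**Figure D3:**
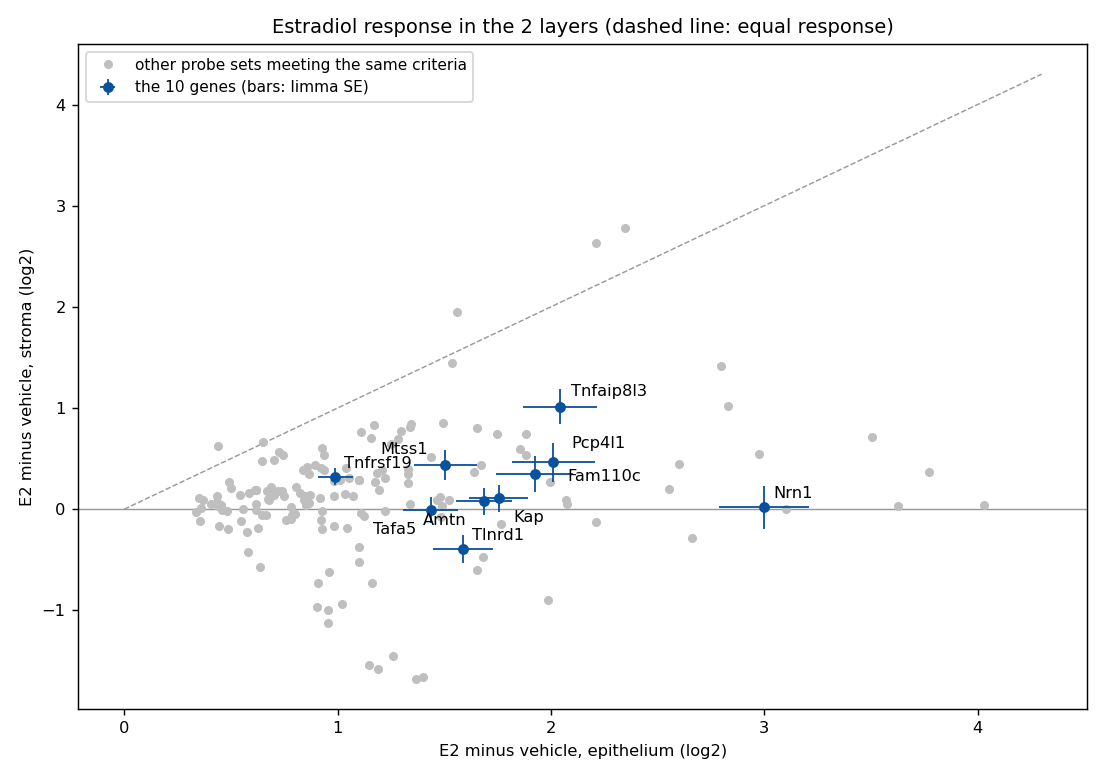
Log2 difference between E2 and vehicle in epithelium (horizontal axis) and in stroma (vertical axis) for the 10 genes (blue, bars showing limma standard errors) and for the other probe sets among the 162 that met the same criteria (grey). All 10 genes lie under the dashed line of equal response, from Tlnrd1 at -0.39 to Tnfaip8l3 at 1.01 on the vertical axis.

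Without estradiol, 9 of the 10 genes did not pass between the layers. Fam110c was higher in epithelium than in stroma under vehicle, by 1.02 ± 0.18 (adjusted p = 0.00214 by limma), and it kept this call in all settings tried. It was 1 of 10 called, while 21.4% of all probe sets were called and 7.27% were higher and 14.1% lower in epithelium. Kap measured 0.41 ± 0.14 higher (adjusted p = 0.0534), Tnfrsf19 0.23 ± 0.08 higher (0.0622) and Nrn1 -0.61 ± 0.21 (0.0633). Tnfaip8l3 (-0.02 ± 0.17), Mtss1 (0.13 ± 0.15) and Tafa5 (0.14 ± 0.13) had the smallest differences. The epithelial vehicle arrays lay entirely above the stromal vehicle arrays for 4 genes (Kap, Tnfrsf19, Fam110c and Pcp4l1), as did 14.6% of all probe sets, and entirely below for 0.

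Vehicle arrays of the layers with the same replicate number deviated together (r = 0.175, 0.137 and 0.125), while the E2 arrays did not all do so (-0.313, 0.229 and -0.0633). With a replicate block 3 genes were called between the vehicle arrays, Fam110c and Amtn higher and Nrn1 lower in epithelium. In that fit 4593 of the 23410 probe sets were called, 1553 higher and 3040 lower. The count of 1 also changed when single arrays were left out. It was 2 without epithelial vehicle replicate 2, epithelial E2 replicate 1 or epithelial E2 replicate 2 (Kap with Fam110c in each) and 2 without stromal vehicle replicate 1 (Nrn1 with Fam110c). It was 3 without epithelial vehicle replicate 3 (Nrn1, Tlnrd1 and Fam110c) and 3 without epithelial E2 replicate 3 (Tnfrsf19, Pcp4l1 and Fam110c). Calls were common among all probe sets too, at 21.4% in the main fit and 3385 to 7197 probe sets with 1 array left out. Whether the genes exceeded these shares was not tested. The epithelial vehicle arrays had served in picking genes that rose from them, so this comparison is not independent of the choice either.

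The relatives of the 10 genes were listed by protein family, not by the rule that picked the 10. Earlier results of these data were known when they were listed. Of 42 relatives measured, 1 rose and 5 fell with E2 in epithelium (limma, adjusted p under 0.05), where 1.77% and 1.12% of all probe sets did so, and their median difference was -0.07. In stroma 0 rose and 4 fell in limma (1 higher and 6 lower at an unadjusted p under 0.05), with a median of -0.03. Of all probe sets 1.52% rose and 1.98% fell there. By the test of the difference between layers, 0 of 42 passed in limma, with 8 at an unadjusted p under 0.05 (4 in each direction). The share of all probe sets passing that test was not counted, nor was any share at an unadjusted p under 0.05. The counts rested on few arrays. In epithelium 2 passed without vehicle replicate 1, 10 without vehicle replicate 3, 0 without E2 replicate 1 and 1 without E2 replicate 2, and 0 with E2 replicates 1 and 2 averaged. In stroma 7 passed without epithelial vehicle replicate 2. There 2 passed without stromal vehicle replicate 1 or 2 or stromal E2 replicate 1 or 3, and 1 without stromal vehicle replicate 3 or stromal E2 replicate 2, or with the E2 pair averaged.

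No relative of Tnfrsf19 in the tumor necrosis factor receptor family passed as a riser by the limma test. Tnfrsf26 measured 1.14 ± 0.39 higher in epithelium without passing (adjusted p = 0.159 by limma), while Tnfrsf19 itself measured 0.99 higher. Its vehicle arrays (8.32, 7.21 and 8.99) and E2 arrays (9.47, 9.70 and 8.76) overlapped there. Of 21 measured, 0 rose and 4 fell in epithelium (1 and 7 at an unadjusted p under 0.05), with a median of -0.24. In stroma 0 rose and 3 fell (0 and 5), with a median of -0.10. Of all probe sets 1.77% rose and 1.12% fell in epithelium, against 1.52% and 1.98% in stroma. These shares are at the adjusted threshold and give no measure for the unadjusted counts. Tnfrsf21, a death domain receptor, measured 10.11, 10.96 and 10.13 under vehicle and 9.30, 9.32 and 9.50 under E2 in epithelium (-1.03 ± 0.19, adjusted p = 0.0152). In stroma it measured 11.12, 10.95 and 11.12 under vehicle and 9.73, 9.66 and 9.84 under E2 (-1.32 ± 0.19, adjusted p = 0.0024). Its groups overlapped in neither layer, and the stromal fall passed in all 21 other settings. The epithelial fall passed in 17 of 21, and did not on the 6 epithelial arrays alone (adjusted p = 0.19), with E2 replicates 1 and 2 averaged (0.137), without epithelial E2 replicate 1 (0.0746) or without epithelial E2 replicate 2 (0.0738).

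Tnfrsf11b, the gene of osteoprotegerin, a soluble decoy receptor, also fell in both layers, by 0.64 ± 0.12 in epithelium (a call in 18 of 21 settings) and 0.57 ± 0.12 in stroma (16 of 21). Cd40, a costimulatory receptor, fell by 1.52 ± 0.34 in epithelium (adjusted p = 0.0384), a call that held in 7 of 21 settings. Ltbr, the lymphotoxin receptor, fell there by 0.42 ± 0.08 (15 of 21). Tnfrsf9, a costimulatory receptor of lymphocytes, fell in stroma (-1.03 ± 0.24), a call in 11 of 21 settings. Cd40 and Tnfrsf9 are also leukocyte genes. The group mean of the leukocyte markers was 8.52 under vehicle and 8.92 under E2 in epithelium, where Cd40 fell. In stroma, where Tnfrsf9 fell, it was 9.51 and 9.09. The group mean of the epithelial markers was 10.47 under vehicle and 9.66 under E2 in epithelium. Cd40 measured 9.21, 10.52 and 8.68 under vehicle there, and its fall was 0.99 without vehicle replicate 2. The part of leukocyte or epithelial cell RNA in either fall was not tested.

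In the smaller families few relatives passed. Nrn1l, the closest relative of Nrn1, measured 7.85 to 8.04 under vehicle and 7.88 to 8.15 under E2 in epithelium. The 4 enamel genes Odam, Ambn, Enam and Amelx, relatives of Amtn by function and evolution, stayed between 4.39 and 6.0 on all epithelial arrays, with 0 passing in limma (Odam at an unadjusted p under 0.05). Tafa1, Tafa2, Tafa3 and Tafa4 differed by -0.11 to 0.18 in epithelium while Tafa5 differed by 1.44, and 0 of 4 passed in limma, also at an unadjusted p under 0.05. Pcp4 differed by 0.06 ± 0.22 in epithelium and fell in stroma by 1.07 ± 0.22 (adjusted p = 0.0195), from 7.42, 8.17 and 8.47 to 6.93, 6.94 and 6.98, while Pcp4l1 measured higher in both layers. The calls of Pcp4 in stroma and of Fam110b in epithelium each held in 15 of 21 settings, and that of Baiap2 in epithelium in 16.

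Fam110b alone of the relatives passed as a riser in epithelium (limma, adjusted p = 0.0214). It measured 0.46 ± 0.09 higher, from 6.81, 6.83 and 6.85 to 7.44, 7.29 and 7.13. In stroma it measured 0.37 ± 0.09 higher (adjusted p = 0.0522), while Fam110a differed by -0.01 ± 0.08 in epithelium. Among relatives of Mtss1, Baiap2, another membrane-bending scaffold, fell by 0.80 ± 0.16 in epithelium (adjusted p = 0.0265), and Mtss2 measured 0.60 ± 0.20 higher without passing (adjusted p = 0.141). Baiap2l1 had 3 probe sets that disagreed. The brightest, used here, differed by -0.02 ± 0.07 in stroma, and the dimmest measured 0.83 ± 0.18 higher there (adjusted p = 0.0301). Talins Tln1 and Tln2 and the Tnfaip8, Tnfaip8l1 and Tnfaip8l2 genes had 0 of 5 passing in either layer by limma (Tln2 at an unadjusted p under 0.05 in epithelium).

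**Figure D4:**
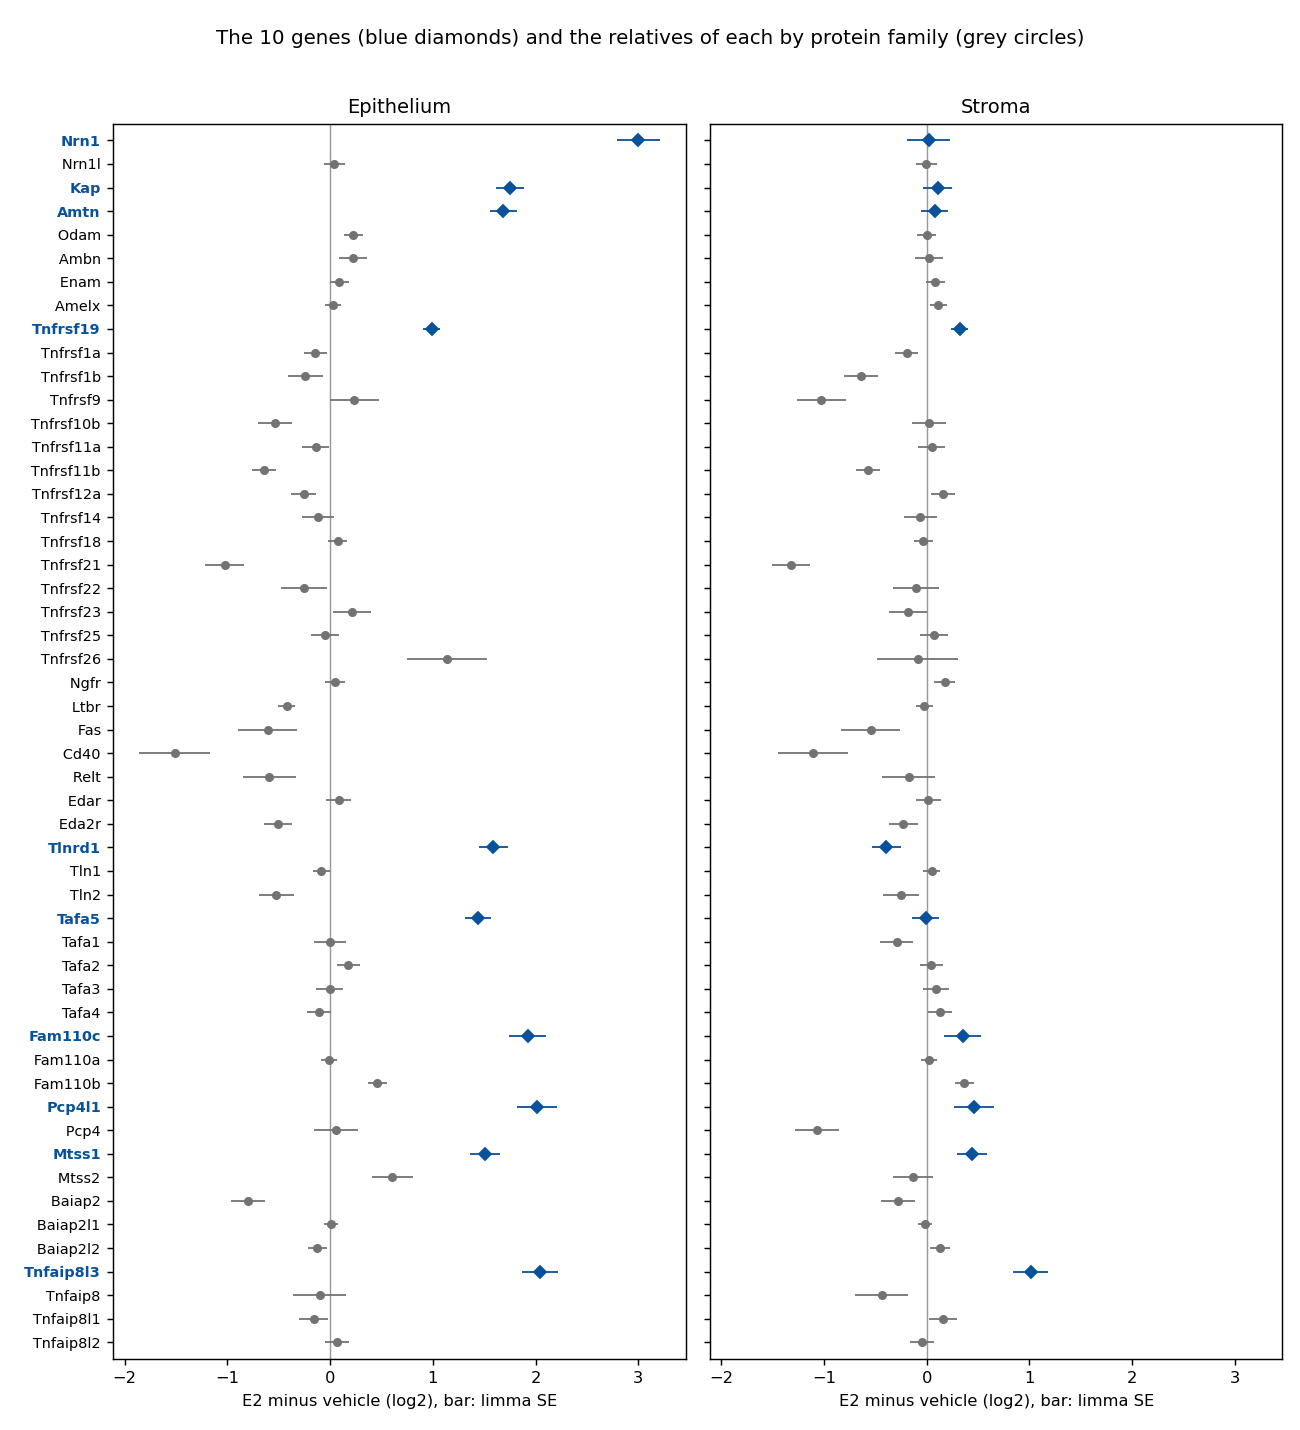
Log2 difference between E2 and vehicle (horizontal axis, bars showing limma standard errors) in epithelium (left) and stroma (right) for the 10 genes (blue diamonds) and, under each, its relatives by protein family (grey circles). In epithelium the 10 genes lie between 0.99 and 3.00, while Fam110b at 0.46 is the only relative that passed as a riser. Tnfrsf26 lies at 1.14 without passing.

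Known estrogen targets of the uterus, listed from general knowledge, gave the setting of these responses. Of 13 measured, 5 rose (Pgr, Greb1, Oxtr, Igf1 and Gja1) and 1 fell (Ccnd1) in epithelium, while in stroma 1 rose (Greb1) and 1 fell (Lcn2), by limma. Of all probe sets 1.77% rose and 1.12% fell in epithelium, against 1.52% and 1.98% in stroma. The median epithelial difference of the 13 was -0.02. Of the 7 that did not pass there, Padi1 measured higher (0.96). Muc1 (-1.04), Ltf (-0.76), Sprr2b (-0.43), Lcn2 (-0.29), Wnt4 (-0.05) and Aqp5 (-0.02) measured lower. The epithelial marker mean was 11.17 on epithelial vehicle replicate 2 and 9.60 on replicate 3. Ccnd1 (10.46 and 8.77), Muc1 (12.51 and 10.75) and Ltf (12.29 and 10.28) were likewise higher on replicate 2. The highest epithelial E2 array of Ccnd1 measured 8.25. The part of cell make-up in the epithelial differences of these targets was not tested. Pgr, the progesterone receptor gene, measured 7.59 and 10.57 in epithelium and 10.28 and 11.20 in stroma (means under vehicle and E2). Under E2 its stromal mean lay above its epithelial mean, the opposite order to that of the 10 genes.

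The genes closest in pattern were found by the correlation of each gene with the mean of the standardized profiles of the 10 over the 12 arrays. These correlations describe mainly the 4 group levels, since arrays of a group share their treatment and layer, and they carry no test. The highest was for Ccdc85a (r = 0.969), followed by Heph (0.966), S100g (0.960), Mb21d2 (0.958), Myb (0.957) and Bpifc (0.957). S100g encodes calbindin-D9k, a calcium-binding protein known as an estrogen target in uterus. It measured 7.29, 7.55 and 7.42 under vehicle and 11.30, 11.24 and 10.23 under E2 in epithelium, and 7.16 to 8.60 on the stromal arrays. Heph, the gene of the iron oxidase hephaestin, measured 6.28, 7.31 and 7.32 under vehicle and 8.98, 8.86 and 9.05 under E2 in epithelium, and 6.47 to 7.04 in stroma.

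Among the 10 genes themselves, the 45 pairwise correlations over 12 arrays ran from 0.751 to 0.979, with a median of 0.920. The way the genes were picked favours high correlations here, so these values are no evidence of shared regulation. Tnfrsf19 was closest to the mean of the other 9 (r = 0.976) and Tnfaip8l3 least close (0.867). The gene nearest to Kap, Amtn, Tnfrsf19 and Tafa5 was in each case Ccdc85a (r from 0.966 to 0.977). For Tnfaip8l3 it was the growth factor gene Fgf2 (r = 0.972), which measured 1.17 ± 0.12 higher in epithelium and 0.83 ± 0.12 higher in stroma. For Pcp4l1 it was Bpifc (r = 0.991), with a like low value on epithelial E2 replicate 3 (9.96, 10.00 and 8.52 with E2). Pank3, a pantothenate kinase gene, was nearest to Nrn1 (0.975), the gap junction gene Gja1 to Tlnrd1 (0.948), Pi15 to Fam110c (0.975) and the potassium channel gene Kcnk5 to Mtss1 (0.978).

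Promoter windows were read for these genes, which had been picked for a rise with E2 in epithelium. Their shared pattern follows from that choice. RefSeq promoters on build GRCm38.p6 matched 8 of the 10 genes, with 10 windows of 250 bases before a start site (Tnfrsf19 and Tafa5 had more than 1). Nrn1 and Mtss1 are named only. The windows were searched on both strands for the full estrogen response element (GGTCA and TGACC with 3 bases between them), its single arm (GGTCA or TGACC), the AP-1 motif (TGAGTCA or TGACTCA), the GC box (GGGCGG or CCGCCC), the TATA box (TATAAA or TTTATA) and the CCAAT box (CCAAT or ATTGG). The single arm is contained in the full element, and GC boxes can overlap each other. The 4 windows below show the TATA box of Kap, the CCAAT boxes of Amtn, the single arm of Tnfrsf19 and the GC boxes of Tnfaip8l3, which rose in both layers. Each runs 5′ to 3′ on the gene's strand and ends at the base before the start site, with motif matches in capitals.
Kap (chr6:133853668-133853917, minus strand): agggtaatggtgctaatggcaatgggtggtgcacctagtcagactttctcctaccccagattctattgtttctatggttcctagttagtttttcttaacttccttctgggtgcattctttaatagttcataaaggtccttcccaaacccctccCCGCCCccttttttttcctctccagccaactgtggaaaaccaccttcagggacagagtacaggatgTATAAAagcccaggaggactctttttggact
Amtn (chr5:88375858-88376107, plus strand): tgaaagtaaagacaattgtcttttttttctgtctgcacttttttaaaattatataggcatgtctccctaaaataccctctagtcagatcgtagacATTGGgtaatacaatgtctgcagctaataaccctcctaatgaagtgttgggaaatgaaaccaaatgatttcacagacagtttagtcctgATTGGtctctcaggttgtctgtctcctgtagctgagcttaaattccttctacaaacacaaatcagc
Tnfrsf19 (chr14:61046856-61047105, minus strand): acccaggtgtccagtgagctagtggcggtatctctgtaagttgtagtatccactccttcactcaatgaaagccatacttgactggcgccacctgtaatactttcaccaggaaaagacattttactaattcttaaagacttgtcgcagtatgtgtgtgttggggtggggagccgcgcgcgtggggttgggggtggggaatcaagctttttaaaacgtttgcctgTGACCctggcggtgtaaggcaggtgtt
Tnfaip8l3 (chr9:54068412-54068661, minus strand): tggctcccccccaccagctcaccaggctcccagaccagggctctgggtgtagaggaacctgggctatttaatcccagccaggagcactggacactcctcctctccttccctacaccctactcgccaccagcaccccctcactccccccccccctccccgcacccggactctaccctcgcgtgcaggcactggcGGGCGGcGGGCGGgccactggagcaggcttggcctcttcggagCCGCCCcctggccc

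The full estrogen response element was in 0 of the 10 windows and in 0.0639% of 32851 windows in the table. The single arm was in 1 of the 10 windows (Tnfrsf19) and in 35.2% of all. The AP-1 motif was in 0 of the 10 and in 4.46% of all. The GC box was in 7 of the 10 windows, of 6 genes (Kap, Tnfrsf19, Tlnrd1, Tafa5, Fam110c and Tnfaip8l3), and in 32.7% of all. The TATA box was in 1 window (Kap, starting 31 bases before the start site) and in 12.4% of all, and the CCAAT box in 2 windows (Amtn and Pcp4l1) and in 33.8% of all. The windows differed widely in base composition, from 37.2% G and C in Amtn and 45.6% in Kap to 74.8% in Tlnrd1 and 83.6% in the first window of Tafa5, with a median of 52.4% over all windows. A match here is a run of letters, and a missing match says only that those letters were not in these bases.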

How the data were processed

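The deposited table gave log2 signals for 12 arrays (Affymetrix Mouse Gene 1.0 ST), made by the authors with RMA per the submitters' processing notes, with version and settings not given in the sources used here. The table held 35556 probe sets, with values from 3.2 to 14, and was used without further normalization or filtering. Its 23410 probe sets with a gene symbol in the platform annotation were tested, and 21789 of them had a single symbol. Where several probe sets named one gene alone, the one with the highest mean over the arrays was used.

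Groups were compared in limma 3.58.1 under R 4.3.3 (lmFit and eBayes, two-sided, all 12 arrays, 4 groups, 1 spread per probe set). Benjamini-Hochberg adjustment ran over the 23410 tested probe sets, and a result passed at an adjusted p under 0.05. The number of arrays limits the precision. The procedure was tested on simulated data.

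The 10 genes, the gene lists, the markers and the comparisons were chosen with earlier results of these data known. Named genes were the 10, listed relatives and estrogen targets past the threshold, the relatives compared with a member, the 6 genes most like the mean profile and the 1 most like each member (predicted models, microRNAs and olfactory receptors left out). Enamel, talin and other relatives that did not pass were named beside their member. Epithelial and stromal vehicle arrays with the same replicate number deviated together (r = 0.175, 0.137 and 0.125), so that this pairing comes from the data and is not stated by the labels. Vehicle and E2 arrays did not all do so within epithelium (-0.419, 0.273 and 0.273) or within stroma (0.198, -0.0394 and 0.0261). Nor did the E2 arrays of the 2 layers all do so (-0.313, 0.229 and -0.0633). Alternatives tried were testing only probe sets with a group mean of 6 or more, testing the whole table, 2 other scalings, a trend with a robust prior, array weights, a replicate block, the 6 arrays compared alone, and leaving out each array. The average of E2 replicates 1 and 2 was added after seeing the data.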

Additional observations from a re-analysis of the deposited data

Results flagged for a closer look

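Tlnrd1 was higher with E2 on all 3 epithelial arrays and lower on all 3 stromal arrays, and its epithelial minus stromal difference was 1.98. That difference was not tested, since the epithelial contrast chose the gene. Among the listed estrogen targets, the difference between layers was tested in limma and passed for 4. It was 2.06 ± 0.34 for Pgr (adjusted p = 0.0186), 2.52 ± 0.35 for Oxtr (0.00932), 1.89 ± 0.28 for Igf1 (0.0111) and 1.24 ± 0.20 for Gja1 (0.0146). For each the E2 minus vehicle difference was larger in epithelium. The means under E2 were still higher in stroma for Pgr (11.20 against 10.57) and Oxtr (12.05 against 10.92). This test was not repeated in the other settings, and the share of all probe sets passing it was not counted. Igf1 measured 1.16 higher in epithelium and -0.73 in stroma. Cell type markers moved in the same epithelial arrays, and their part in these differences was not tested.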

How the results depend on the processing

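The epithelial median of the 10 genes stayed between 1.61 and 1.81 and the stromal median between 0.17 and 0.24 under all 21 alternatives. Many of these could not move a median. Settings that change only the probe sets tested, the spread or the arrays of the other layer leave a difference of group means as it was. Probe sets called in epithelium (678) were 1099 with quantile normalization, 4706 with array weights, 438 with the replicate block, 49 on the 6 epithelial arrays, 89 with E2 replicates 1 and 2 averaged, and 219 (without epithelial E2 replicate 1) to 1634 (without epithelial vehicle replicate 3) with 1 array left out. In stroma (820) they were 4503 with array weights, 2142 on the 6 stromal arrays, 303 with the pair averaged, and 413 to 1342 with 1 array left out. Between layers under vehicle (5001) they were 9867 with array weights and 3385 to 7197 with 1 array left out.

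Of the 10 genes, stroma called 1, but 2 with quantile normalization, 6 with array weights, 4 on the 6 stromal arrays and 1 to 3 with 1 array left out. Between layers under vehicle the count of 1 was 2 with the filter on low values, 4 with array weights, 3 with the replicate block, 2 with the pair averaged and 1 to 3 with 1 array left out. The count of relatives in epithelium (6) was 17 with array weights, 3 with the replicate block, 0 on the 6 epithelial arrays, 0 with the pair averaged and 0 to 10 with 1 array left out. In stroma (4) it was 12 with array weights, 7 on the 6 stromal arrays, 1 with the pair averaged and 1 to 7 with 1 array left out. The cause was not tested.

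Directions turned for some differences near 0. In stroma, with 1 array left out Nrn1 ran from -0.17 to 0.16, Amtn from -0.037 to 0.16 and Tafa5 from -0.088 to 0.044, and Tafa5 was 0.0092 with quantile normalization. Between layers under vehicle, Tnfaip8l3 (-0.016) was 0.027 with quantile normalization, 0.058 with array weights, 0.012 without epithelial vehicle replicate 3 and 0.17 without stromal vehicle replicate 2, and Mtss1 (0.13) was -0.0011 without epithelial vehicle replicate 2. Within a layer not every pair of same-numbered arrays deviated together, so the numbers were not taken as pairs, and the block there left the stromal call of Tnfaip8l3 in place. Low signals limit Kap, Amtn, Tnfrsf19 and Pcp4l1, whose levels outside epithelial E2 were not tested against background.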
